A study of Mus musculus with 8 samples.

Results

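Braf, Nf1, Rasa1, Agap2 and Sos1 encode proteins that switch Ras on or off or carry its signal through the RAF kinases and phosphoinositide 3-kinase (PI3K). R-loop signal over these 5 genes was compared between mouse muscle stem cells (MuSCs) with and without Kmt5b (Suv420h1 or Suv4-20h1 in the labels), which encodes a methyltransferase of histone H4 lysine 20. All rows of the deposited peak table whose gene symbol was one of the 5 names were taken, which gave 40 of 28265 union peaks: 20 of Nf1, 10 of Rasa1, 8 of Braf, and 1 each of Agap2 and Sos1. The measure was DRIP-seq, in which the S9.6 antibody, raised against RNA:DNA hybrids, pulls down sonicated genomic DNA. The control genotype was Pax7CreERT/Suv4-20h1WT (Ctrl) and the mutant genotype was Pax7CreERT/Suv4-20h1KO (Kmt5b sKO), with 3 S9.6 libraries of each. Both genotypes carried Pax7CreERT, a tamoxifen-inducible Cre recombinase made from the Pax7 locus and hence active in MuSCs. The mice were adults on a C57BL/6 background, and the MuSCs were purified by magnetic sorting and grown in medium with serum, LIF and bFGF. The study's methods call the 3 libraries biological replicates, and the labels do not say which animals each came from. A limma p-value here rests on the spread between libraries pooled over peaks or genes of like level, not on that of 1 peak or gene alone.

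Ras is a small GTPase that is active while bound to GTP. Exchange factors such as Sos1 load Ras with GTP, and GTPase-activating proteins such as Nf1 (neurofibromin) and Rasa1 (p120 RasGAP) return it to the inactive state. Active Ras recruits the kinase Braf, which starts the RAF-MEK-ERK cascade, and also PI3K, whose lipid product activates AKT. Agap2 is an Arf GTPase-activating protein with a GTPase domain that enhances PI3K and AKT activity. In an R-loop a transcript pairs with its template DNA and the other strand is left single, a structure favoured where the displaced strand carries runs of G.

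Summed scores over all peaks lay between 3893768 and 4729631 in Ctrl and between 4699599 and 4930261 in Kmt5b sKO. Scores are spike-in scaled signal, not reads. The median tested peak scored 60 to 70 in Ctrl and 86 to 90 in Kmt5b sKO, and the member peaks held 0.084% to 0.088% of the autosomal score in Ctrl and 0.092% to 0.096% in Kmt5b sKO. The targeted gene carried 1 union peak, with scores of 412, 658 and 420 in Ctrl and 440, 449 and 484 in Kmt5b sKO (log2 fold change of −0.08, limma adjusted p = 0.68). R-loop signal over a gene body does not check its deletion. Union peaks lay on 6 of 9 MuSC marker genes (9 peaks on Pax7, none on Myf5, Cdh15 or Vcam1), on 2 of 4 endothelial genes (Pecam1 and Tek), and on 0 of 4 immune and 0 of 4 fibroadipogenic genes. These are counts of peaks and do not measure expression. In bulk samples of this kind, fewer cells with an R-loop and less R-loop signal per cell cannot be told apart.

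The sequences that carry the clearest contrast among the genes are shown first. All are GRCm38 reference sequence written on the strand of the gene. The next line holds the 300 central bases (chr13:85274851-85275150, minus strand) of the third Rasa1 peak counted from the transcription start site (TSS), which had the highest score of that gene and rose. Capitals mark runs of 3 or more G on the strand shown. Such runs on the opposite strand were counted but are left in small letters.
Rasa1 intron 1: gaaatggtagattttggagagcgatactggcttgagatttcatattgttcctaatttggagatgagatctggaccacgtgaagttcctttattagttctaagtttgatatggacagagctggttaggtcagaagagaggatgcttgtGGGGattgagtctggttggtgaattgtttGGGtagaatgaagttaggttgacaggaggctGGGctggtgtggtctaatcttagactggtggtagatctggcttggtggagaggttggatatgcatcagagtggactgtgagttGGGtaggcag
The sixth Rasa1 peak, with the largest change among the tested peaks of the 5 genes, covered the second exon of the gene. The following 300 bases (chr13:85258244-85258543, minus strand) show that exon of 153 bases in capitals, at chr13:85258318-85258470, between the ends of its flanking introns.
Rasa1 exon 2: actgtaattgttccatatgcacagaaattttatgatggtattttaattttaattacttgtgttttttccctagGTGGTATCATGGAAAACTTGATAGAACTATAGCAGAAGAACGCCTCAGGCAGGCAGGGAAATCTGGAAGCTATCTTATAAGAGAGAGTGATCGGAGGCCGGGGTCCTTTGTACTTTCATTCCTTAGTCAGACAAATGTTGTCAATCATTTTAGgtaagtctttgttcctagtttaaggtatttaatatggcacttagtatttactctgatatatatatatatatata
The single Agap2 peak also rose, and its 300 central bases (chr10:127084651-127084950, plus strand) are given with the same capitals for G runs.
Agap2: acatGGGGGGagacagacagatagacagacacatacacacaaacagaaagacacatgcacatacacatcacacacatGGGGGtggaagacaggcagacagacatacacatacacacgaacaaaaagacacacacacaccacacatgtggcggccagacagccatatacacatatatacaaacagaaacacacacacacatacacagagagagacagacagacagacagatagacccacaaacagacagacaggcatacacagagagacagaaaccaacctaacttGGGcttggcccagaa
For contrast, the last line gives the centre (chr6:39659151-39659450, minus strand) of the longest Braf peak, the highest-scoring peak of the 5 genes, which did not pass the test.
Braf intron 8: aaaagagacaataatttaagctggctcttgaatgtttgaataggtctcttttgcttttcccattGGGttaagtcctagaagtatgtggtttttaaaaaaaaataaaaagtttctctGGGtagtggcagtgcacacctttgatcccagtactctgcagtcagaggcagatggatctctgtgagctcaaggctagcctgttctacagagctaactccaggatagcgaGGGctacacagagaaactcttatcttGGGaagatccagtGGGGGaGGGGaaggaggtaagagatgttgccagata
The Rasa1 intron 1 window held 4 G runs and 0 on the opposite strand, the Agap2 window 3 and 2, and the Braf window 6 and 2. Across 21756 windows of the same length at the centres of tested peaks assigned to a gene, 91.1% held at least 1 such run on the gene strand, 88.6% on the other strand and 98.0% on either, with a median of 3 runs on the gene strand (quartiles 2 and 5). The Rasa1 intron 1 and Agap2 windows held fewer G runs than the Braf window. Each window is a small part of its peak, and the windows of called and uncalled peaks were not compared.

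Of the 40 peaks, 38 lay above the mean score of 30 required for testing. The other 2 were a peak of 600 bp in Nf1 and a peak of 400 bp in Rasa1. The mean was taken over both genotypes. Counted from the TSS, peaks 1 and 6 of Rasa1 and peaks 1 and 3 of Nf1 had Ctrl means of only 26.0 to 26.7. They passed the filter only through their Kmt5b sKO scores, so a rise at them is not independent of it. Calls required a fold change over 1.5 together with a limma adjusted p under 0.1. Kmt5b sKO was higher at 11 of the 38 tested member peaks (28.9%) and lower at 0, against 32.9% higher and 0.883% lower over all 25815 tested peaks. Among tested peaks that the table assigns to a gene, 24.5% were called higher and 1% lower. With each library centred on its median peak instead, 4 member peaks were called higher and 2 lower, against 10.3% higher and 11.9% lower over all tested peaks. At an unadjusted limma p under 0.05 there were 14 of 38 member peaks, against 46.1% of all tested peaks. The share of member peaks called higher was thus near that of the table. The median log2 fold change was 0.43 (quartiles 0.09 and 0.71) over the tested member peaks, 0.35 over all tested peaks and 0.27 over those in genes. All 3 Kmt5b sKO libraries lay above all 3 Ctrl libraries at 11 of the 40 member peaks, against 41.1% of the whole table, and at 10 of the 38 tested, against 41.5%. Several of these genes were singled out by the study on the same libraries, so the direction of their change is not independent evidence.

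The calls were uneven across the genes. Rasa1 had 7 of its 9 tested peaks called higher, Braf 2 of 8, Nf1 1 of 19, Agap2 its only peak and Sos1 none of 1. Median log2 fold changes were 1.02 in Rasa1, 0.38 in Braf and 0.22 in Nf1. All 5 member peaks with a negative log2 fold change were in Nf1, at −0.27 to −0.05, and none of them was called.

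Summed over the peaks of each gene, Rasa1 and Agap2 rose and Sos1, Nf1 and Braf did not pass the test. Across 8003 genes tested by their sum, 29.3% were called higher and 0.262% lower, and 45.4% had all Kmt5b sKO libraries above all Ctrl libraries, as did Rasa1 and Agap2 here. Per kb of peak the Ctrl level was similar in the 5 genes, from 26.3 in Braf to 31.1 in Nf1. In Kmt5b sKO it was 29.9 in Braf, 33.4 in Nf1, 41.4 in Sos1, 44.2 in Agap2 and 55.1 in Rasa1. Neighbours in the Ctrl order of Braf, Agap2, Rasa1, Sos1 and Nf1 differed by less than the SD between libraries, which was 1.88 to 5.21 per kb. In the Kmt5b sKO order the same held for Nf1 and Sos1 and for Sos1 and Agap2 (SD 9.29 and 9.43), whereas Rasa1 (SD 4.02) stood above Agap2 by a little more than the SD of Agap2. Rasa1 thus had the highest level per kb of peak in Kmt5b sKO while its Ctrl level was in the middle of the 5.

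**Figure D1:**
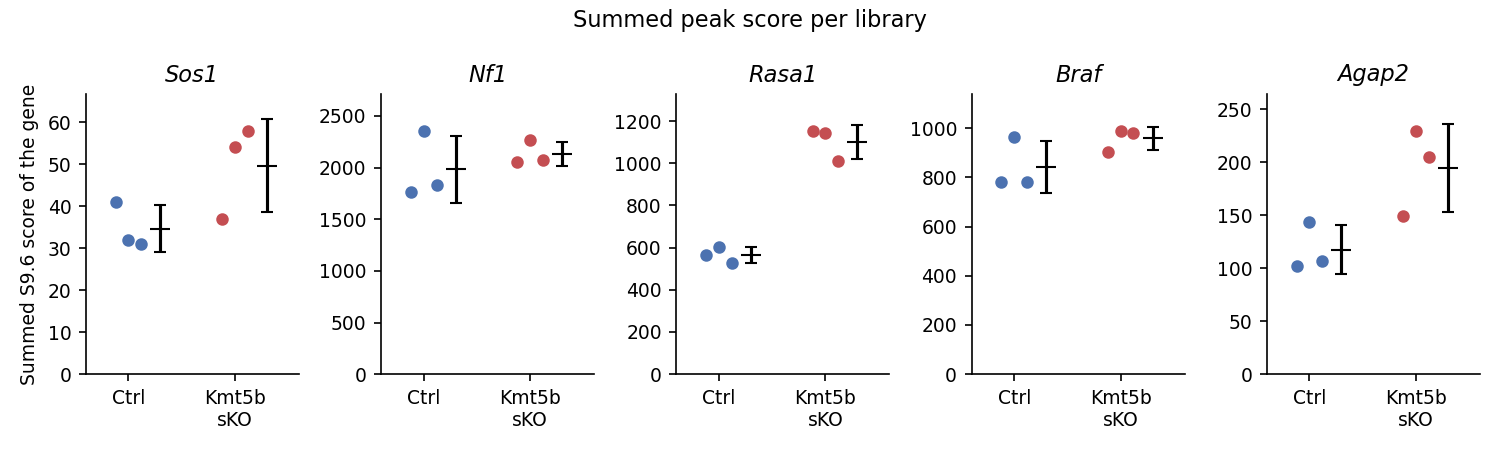
Summed S9.6 score of the union peaks of each gene (vertical axis, score, each panel with its own scale starting at 0), 1 point per library, with the mean and SD of 3 libraries as a line and bars. Rasa1 shows 528 to 603 in Ctrl and 1010 to 1155 in Kmt5b sKO, while the Nf1, Braf and Sos1 points of both genotypes overlap.

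Sos1, the exchange factor that couples growth factor receptors to Ras (ENSMUSG00000024241, chr17:80393751-80480453, minus strand), carried 1 peak of 1200 bp in its first intron at chr17:80475000-80476199. This peak covered 1.38% of a gene of 86703 bp. Its scores were 41, 32 and 31 in Ctrl and 37, 54 and 58 in Kmt5b sKO. Kmt5b sKO replicate 1 lay within the Ctrl range and the other Kmt5b sKO libraries lay above it. The log2 fold change was 0.49 (SE 0.32, 95% interval of the gene sum −0.13 to 1.12), with a limma adjusted p of 0.21. The interval holds both no change and a doubling of the signal, so neither could be told at this level. Without Kmt5b sKO replicate 1 the value was 0.69 and the peak was called (limma adjusted p = 0.089), and without each of the other libraries it was not called.

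Nf1, the neurofibromatosis tumour suppressor and the largest of the 5 genes (ENSMUSG00000020716, chr11:79339693-79581612, plus strand, 241920 bp), carried 20 peaks that covered 26.4% of it. Its summed score was 1763, 2358 and 1829 in Ctrl and 2049, 2268 and 2074 in Kmt5b sKO. The highest library was Ctrl replicate 2, and the genotypes overlapped. The mean ± SD over 3 libraries was 1983 ± 326 for Ctrl and 2130 ± 119.9 for Kmt5b sKO, which gave a log2 fold change of 0.11 (SE 0.12, 95% interval −0.13 to 0.36, limma adjusted p = 0.47). It was 0.04 without Ctrl replicate 1, 0.06 without Ctrl replicate 3, 0.07 without Kmt5b sKO replicate 2 and 0.24 without Ctrl replicate 2, where the limma adjusted p was 0.0012 but the fold threshold was not met.

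The highest peak of Nf1 was its longest, 11400 bp at chr11:79421400-79432799 over exons 13 and 14. It scored 300, 399 and 346 in Ctrl and 265, 328 and 312 in Kmt5b sKO. The genotypes overlapped and the Kmt5b sKO mean was the lower (log2 fold change of −0.20 with SE 0.15, limma adjusted p = 0.29). The only Nf1 peak called was the eighteenth from the TSS, at chr11:79554200-79555799 over exon 49. It scored 40, 36 and 29 in Ctrl and 77, 75 and 40 in Kmt5b sKO, so that Kmt5b sKO replicate 3 equalled the highest Ctrl library. Its log2 fold change was 0.81 (SE 0.29, limma adjusted p = 0.018). The call was lost without Ctrl replicate 3 (0.68, limma adjusted p = 0.12), Kmt5b sKO replicate 1 (0.64, limma adjusted p = 0.11) or Kmt5b sKO replicate 2 (0.66, limma adjusted p = 0.11).

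The peak nearest to the Nf1 TSS, 1000 bp long at chr11:79345200-79346199 in intron 1, scored 17, 33 and 28 in Ctrl and 23, 78 and 38 in Kmt5b sKO. Kmt5b sKO replicate 2 stood far above the other libraries, and Kmt5b sKO replicate 1 lay inside the Ctrl range. The log2 fold change was 0.69 with a limma adjusted p of 0.15, so the peak was not called. The value turned on single libraries. It was 0.23 without Kmt5b sKO replicate 2 (limma adjusted p = 0.74) and 0.42 without Ctrl replicate 1 (limma adjusted p = 0.47), but passed the test at 0.88 without Ctrl replicate 2 (limma adjusted p = 0.084) and at 1.09 without Kmt5b sKO replicate 1 (limma adjusted p = 0.014). One further Nf1 peak, the fifteenth at chr11:79518800-79523199, had a limma adjusted p of 0.039 but a log2 fold change of 0.44, short of the fold threshold. That stretch of intron 36 holds the Evi2 genes on the opposite strand, and the deposited scores do not separate the strands. The remaining 15 tested Nf1 peaks had log2 fold changes between −0.27 and 0.49, with none called.

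Rasa1, the p120 RasGAP (ENSMUSG00000021549, chr13:85214780-85289130, minus strand, 74351 bp), carried 10 peaks that covered 26.9% of it. Its summed score was 563, 603 and 528 in Ctrl and 1155, 1143 and 1010 in Kmt5b sKO. Every Kmt5b sKO library lay far above every Ctrl library. The means were 565 ± 37.5 and 1103 ± 80.5 (SD, n = 3 each), and the log2 fold change was 0.96 (SE 0.13, 95% interval 0.70 to 1.22, limma adjusted p = 3.2e-11). Of the 8003 genes, 1002 had a larger log2 fold change, which puts Rasa1 at the 87.5 percentile. Many of those have few peaks. Among the 557 genes with at least 8 peaks Rasa1 ranked 9, and among the 71 genes with 10 peaks it was 1 of 8 (11.3%) called higher. The cut at 8 peaks was chosen after its value was seen. Neither comparison was adjusted for peak length, which went together with change throughout the table. No Rasa1 peak was longer than 3200 bp.

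The rise was spread over the first part of the gene. Peaks 1 to 5 from the TSS all lay in intron 1 and all rose. The first, at chr13:85280600-85281999, scored 26, 22 and 32 in Ctrl and 84, 73 and 40 in Kmt5b sKO (log2 fold change of 1.22 with SE 0.32, limma adjusted p = 9.4e-04). Repeat (soft-masked) bases made up 73.9% of it, the highest share among the 40 peaks. With a Ctrl mean of 26.7 this first peak was tested only through its Kmt5b sKO scores. The second, at chr13:85276800-85279999, scored 91, 87 and 83 in Ctrl and 182, 193 and 176 in Kmt5b sKO (1.07, SE 0.19, limma adjusted p = 5.7e-07). With the variance of that peak alone the limma adjusted p was 0.023.

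The third peak, at chr13:85273600-85276399, had the highest score of the gene, with 109, 110 and 114 in Ctrl and 276, 247 and 227 in Kmt5b sKO. The 3 Ctrl libraries were almost equal, and each Kmt5b sKO library stood far above them. Its log2 fold change was 1.16 (SE 0.17, limma adjusted p = 3.1e-09), the smallest p among the member peaks. That p rests on the pooled variance, and with the variance of the peak alone the limma adjusted p was 0.026. Its sequence is the Rasa1 intron 1 window above. Peak 4, at chr13:85262200-85265399, scored 77, 63 and 52 in Ctrl and 116, 137 and 104 in Kmt5b sKO, and peak 5, at chr13:85259800-85261599, scored 60, 65 and 61 and then 119, 142 and 92. Neither overlapped between genotypes, and both had a log2 fold change of 0.89 (SE 0.21).

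Peaks 6, 7 and 8 overlapped exons 2, 5 and 6. Peak 6, at chr13:85257600-85258599 over the exon shown above, scored 27, 29 and 24 in Ctrl and 71, 66 and 60 in Kmt5b sKO. The groups did not overlap, and the log2 fold change of 1.27 (with SE 0.31, limma adjusted p = 4.3e-04) was the largest of the member peaks. With a Ctrl mean of 26.7 peak 6 was tested only through its Kmt5b sKO scores, so this rise is not independent of the filter. Peak 8, at chr13:85250200-85251199, scored 23, 36 and 37 in Ctrl and 70, 68 and 56 in Kmt5b sKO (1.02, SE 0.30, limma adjusted p = 0.0031). Peak 7, the untested one at chr13:85252200-85252599, scored 19, 18 and 9 in Ctrl and 62, 34 and 25 in Kmt5b sKO, without overlap.

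The last pair of peaks, at chr13:85233400-85236399 over exons 10 and 11 and at chr13:85228600-85230799 over exons 12 to 14, was not called. Peak 9 scored 79, 106 and 75 in Ctrl and 110, 100 and 158 in Kmt5b sKO (0.48, SE 0.20, limma adjusted p = 0.042, short of the fold threshold). Peak 10 scored 52, 67 and 41 in Ctrl and 65, 83 and 72 in Kmt5b sKO (0.47, SE 0.24, limma adjusted p = 0.11). In both peaks the genotypes overlapped, whereas they were apart in each of the other 8 Rasa1 peaks. Among all union peaks, 41.1% had all Kmt5b sKO libraries above all Ctrl libraries. The 8 peaks centred within 38430 bp of the TSS summed to means of 425 ± 11.0 for Ctrl and 907 ± 110 for Kmt5b sKO (SD over 3 libraries), a ratio of 2.14. The 2 peaks beyond summed to 140 ± 29.5 and 196 ± 29.7, a ratio of 1.40. The sum of the 8 peaks includes the untested peak 7. It also includes peaks 1 and 6, which had Ctrl means of 26.7 and were tested only through their Kmt5b sKO scores. Relative to the other peaks of the gene within each library, peaks 9 and 10 had log2 fold changes of −0.54 and −0.53 (limma adjusted p = 0.16 and 0.19), so that a different change at this end of the gene was not called. The split after 8 peaks was made after the values were seen.

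**Figure D2:**
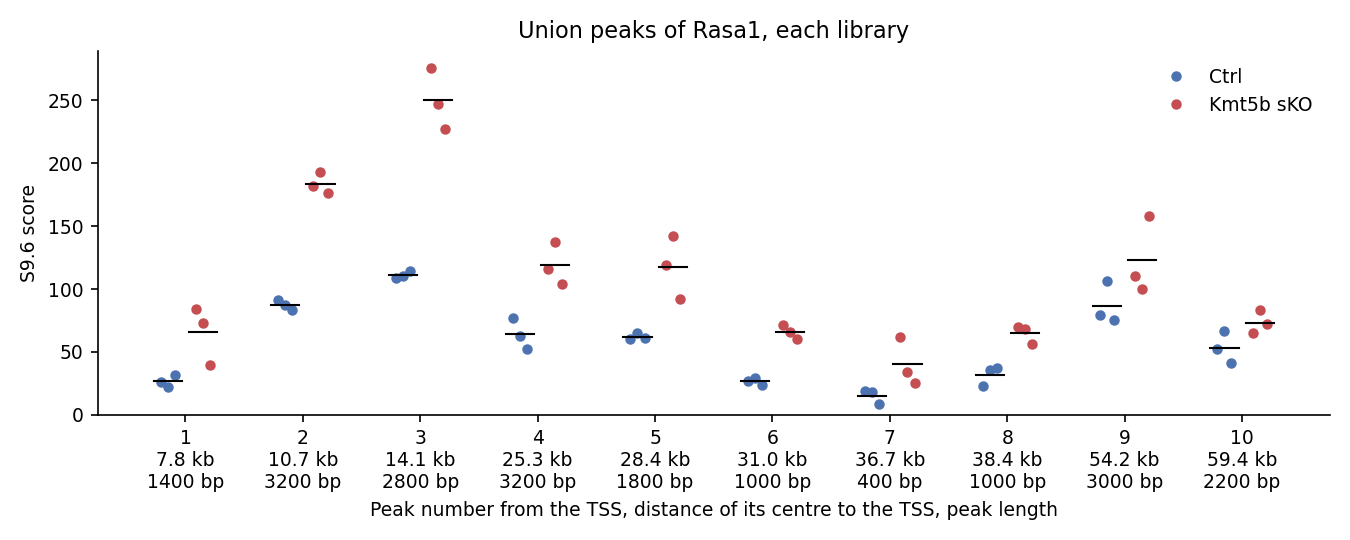
S9.6 score of the 10 union peaks of Rasa1 (vertical axis, score), ordered from the TSS, with the distance of the peak centre and the peak length under each number. Each point is a library and each line the mean of 3. The genotypes are apart in peaks 1 to 8 and overlap in peaks 9 and 10.

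Braf, the kinase that receives the signal of active Ras (ENSMUSG00000002413, chr6:39603237-39725463, minus strand, 122227 bp), carried 8 peaks that covered 26.2% of it. Its summed score was 781, 962 and 779 in Ctrl and 903, 990 and 981 in Kmt5b sKO. Ctrl replicate 2 lay above Kmt5b sKO replicate 1, so the genotypes overlapped. The means were 841 ± 105 and 958 ± 47.8 (SD, n = 3), a log2 fold change of 0.19 (SE 0.13, 95% interval −0.06 to 0.45, limma adjusted p = 0.22). Without Ctrl replicate 2 it was 0.29, with a limma adjusted p of 0.0020 but short of the fold threshold, and without each of the other libraries it was 0.14 to 0.24.

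Of the genes with several peaks, Braf was the one dominated by 1 long peak, 19400 bp at chr6:39649600-39668999 over exons 5 to 9, whose centre is shown above. It scored 465, 586 and 515 in Ctrl and 484, 547 and 585 in Kmt5b sKO, with full overlap. The log2 fold change was 0.05 (SE 0.14, limma adjusted p = 0.82). The Braf calls were both short peaks in early introns. The third peak, at chr6:39680800-39682599 in intron 2, scored 28, 54 and 23 in Ctrl and 59, 82 and 50 in Kmt5b sKO, where Ctrl replicate 2 exceeded Kmt5b sKO replicate 3. Its log2 fold change was 0.91 (SE 0.29, limma adjusted p = 0.0084), and the call was lost without Ctrl replicate 3 (0.67, limma adjusted p = 0.12).

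The first peak, at chr6:39719800-39720799 in intron 1, scored 36, 30 and 28 in Ctrl and 56, 49 and 46 in Kmt5b sKO without overlap. Its log2 fold change was 0.67 (SE 0.32, limma adjusted p = 0.089). The call was kept without Kmt5b sKO replicate 3 and was lost without each of the other 5 libraries (limma adjusted p from 0.11 to 0.26). The second peak, also in intron 1, had 0.58 (limma adjusted p = 0.063), just under the fold threshold. The remaining 4 Braf peaks had log2 fold changes from 0.02 to 0.50 and were not called.

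**Figure D3:**
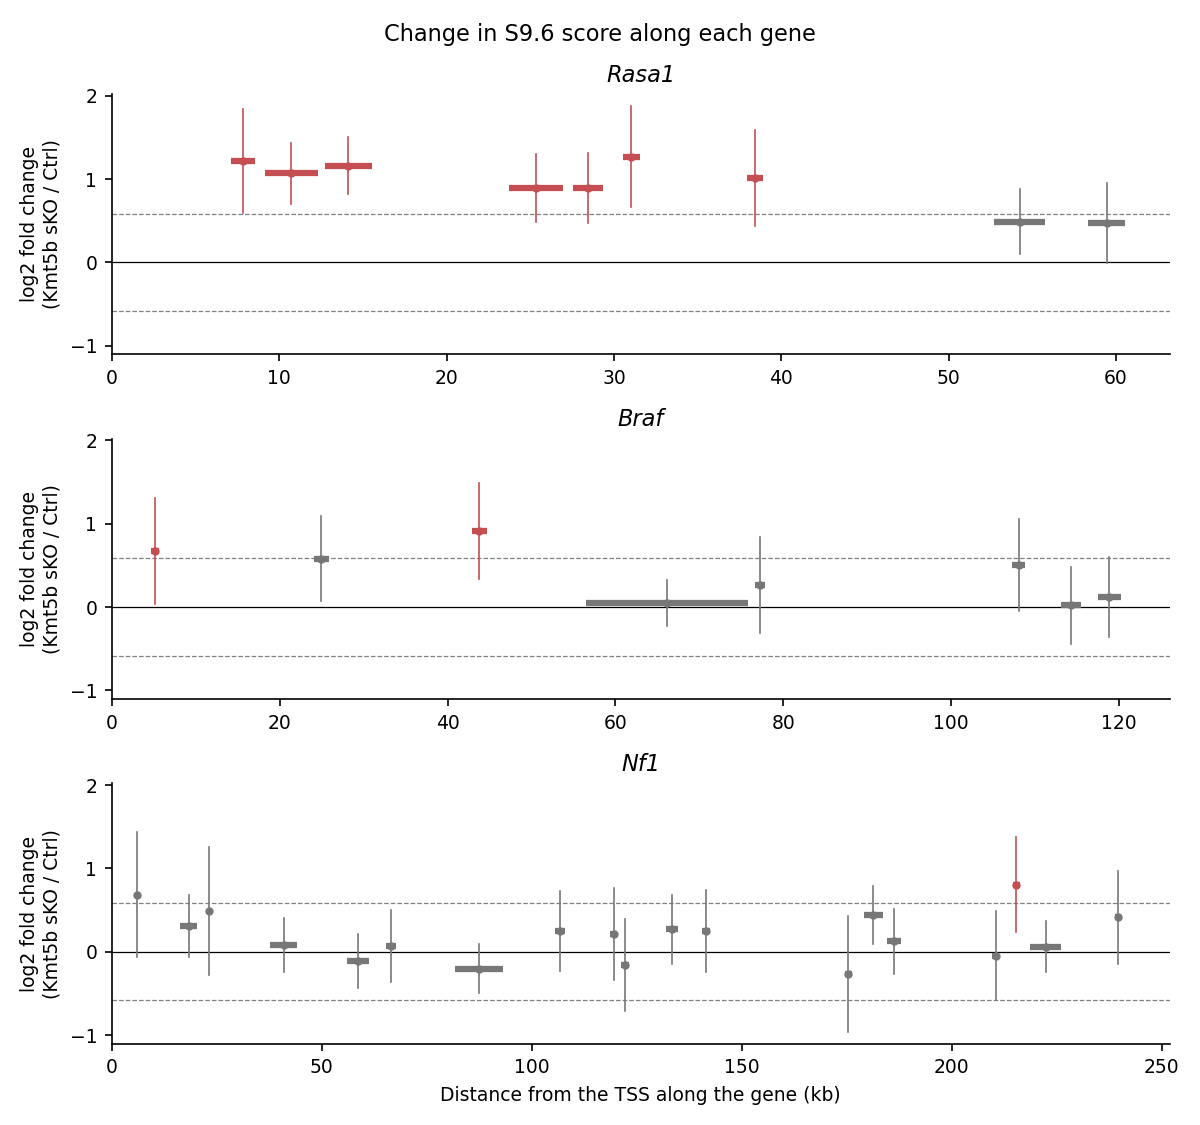
Log2 fold change of each tested peak (vertical axis, Kmt5b sKO over Ctrl, with the 95% interval as a thin line) against its distance from the TSS in kb, for Rasa1, Braf and Nf1. Thick bars span the peak, red marks peaks called higher, and dashed lines mark a fold change of 1.5. The 7 called Rasa1 peaks lie nearer to the TSS than the 2 not called, and the 1 called Nf1 peak lies near the far end of the gene.

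Agap2, the Arf GTPase-activating protein that enhances PI3K signalling (ENSMUSG00000025422, chr10:127075284-127093169, plus strand, 17886 bp), is the shortest of the 5 genes. Its single peak of 4400 bp, at chr10:127082600-127086999 over exons 3 to 8, covered 24.6% of the gene. It scored 102, 144 and 107 in Ctrl and 149, 230 and 205 in Kmt5b sKO. All Kmt5b sKO libraries were higher, although Kmt5b sKO replicate 1 exceeded Ctrl replicate 2 by a small margin. The means were 118 ± 22.9 and 195 ± 41.5 (SD, n = 3), with a log2 fold change of 0.72 (with SE 0.18, limma adjusted p = 5.3e-04). Without Kmt5b sKO replicate 2 it was 0.58 (limma adjusted p = 0.021), just short of the fold threshold. The call was also lost with equal totals (0.51), when centred on the median peak (0.26), after quantile normalization (0.46) and with the variance of the peak alone (limma adjusted p = 0.13).

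No union peak of any gene lay within 1 kb of the TSS of these 5 genes. The nearest edge was 4253 bp away in Sos1, 4663 bp in Braf, 5284 bp in Agap2, 5508 bp in Nf1 and 7130 bp in Rasa1. Of the 40 peaks, 19 (47.5%) overlapped an exon, against 50.1% of tested peaks in genes. Distance from the TSS and log2 fold change had a Spearman rho of −0.65 over the 9 tested peaks of Rasa1, −0.71 over the 8 of Braf and −0.06 over the 19 of Nf1, given as a description of peaks that share a gene and libraries. For peak length and log2 fold change it was −0.37 in Rasa1, −0.62 in Braf and −0.44 in Nf1. Position was not separated from length.

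Because scaling differences act on all genes of a library, the genes were also set against each other within each library. The log2 ratio of the Rasa1 sum to the Nf1 sum was −1.65, −1.97 and −1.79 in Ctrl and −0.83, −0.99 and −1.04 in Kmt5b sKO. All Kmt5b sKO ratios were above all Ctrl ratios, a difference of 0.85. Against Braf, Rasa1 shifted by 0.77, and the ratio of Nf1 to Braf shifted by −0.08. Two-sided exact permutation tests gave p = 0.1, 0.1 and 0.3, where 0.1 is the smallest that 3 against 3 libraries allow. These 3 ratios were chosen after the gene sums were seen. They do not take out peak length, which went together with change throughout the table. The longest peak was 3200 bp in Rasa1, 11400 bp in Nf1 and 19400 bp in Braf.

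To ask whether peaks changed relative to their own gene, each tested peak was set against the sum of the other peaks of its gene in the same library. Of the 36 member peaks in this test, 0 were called higher and 2 lower, against 6.23% higher and 5.65% lower over 17708 peaks, so the member calls were at the level of the table. Both were the longest peak of their gene. The longest Braf peak held 62.2% ± 3.47 of the gene's score in Ctrl but 56.2% ± 3.12 in Kmt5b sKO (SD over 3 libraries), with a log2 fold change of −0.36 against the rest (limma adjusted p = 0.082). The Braf shares of the genotypes overlapped, with 59.5% in Ctrl replicate 1 and 59.6% in Kmt5b sKO replicate 3. The longest Nf1 peak held 17.6% ± 1.13 and 14.1% ± 1.09, with −0.38 (limma adjusted p = 0.066). The Braf call was lost without Ctrl replicate 2 or 3 or Kmt5b sKO replicate 1 or 2, and the Nf1 call without any 1 of the Ctrl libraries or Kmt5b sKO replicate 1.

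Peak length and change went together throughout the table, and the members were read against it. Spearman rho of length and log2 fold change was −0.57 over all 25815 tested peaks and −0.40 over the 38 member peaks. Peaks were unified over libraries and filtered on the mean of both genotypes, so low peaks could enter through high Kmt5b sKO scores. Rasa1 peaks 1 and 6 and Nf1 peaks 1 and 3, of 600 to 1400 bp, entered so. How much of the relation with length comes from this selection was not tested. In the class of 200 to 1000 bp, 69.7% of all tested peaks were called higher, with 3 of 5 member peaks. In the class of 1200 to 1800 bp it was 53.7%, with 4 of 13 members, and at 2000 to 2800 bp 30.02%, with 1 of 7. At 3000 to 5600 bp it was 13.8%, with 3 of 9, and in the class of 5800 to 145000 bp 4.43%, with 0 of 4. All 9 tested Rasa1 peaks lay above the median log2 fold change of their length class, as did the Agap2 peak. Only 6 of 19 Nf1 peaks and 1 of 8 Braf peaks did, and the Sos1 peak lay below.

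With each library centred within the length classes, an alternative chosen after seeing the data, 3 member peaks were called higher, all in Rasa1 (peaks 2, 3 and 4), and 2 were called lower, both in Nf1. Over all peaks that setting called 6.64% higher and 5.43% lower. The calls of Braf, Agap2 and the Nf1 peak over exon 49 were lost under it.

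**Figure D4:**
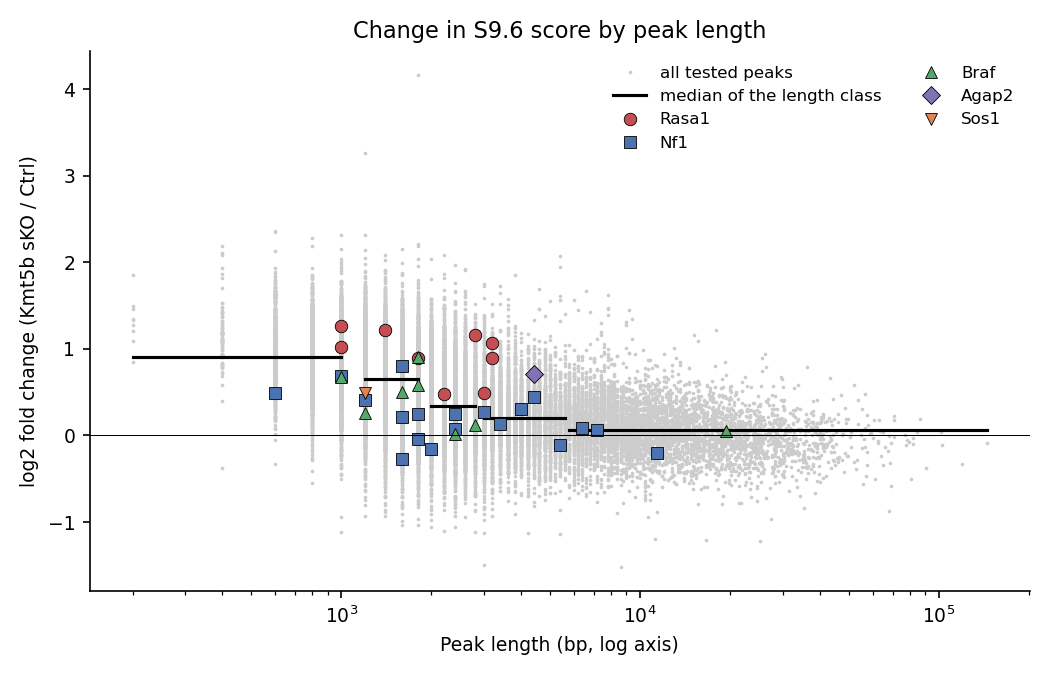
Log2 fold change (vertical axis, Kmt5b sKO over Ctrl) of all 25815 tested peaks in grey against peak length in bp on a log axis, with the 38 tested member peaks as coloured symbols by gene and the median of each of 5 length classes as black lines. The 9 Rasa1 circles all lie above the median of their class, and the Braf triangles lie mostly below.

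In base composition the median GC content was 39.1% over the member peaks and 42.9% over tested peaks in genes. By gene it was lower in Rasa1 (34.5%), Braf (38.2%) and Nf1 (39.9%), and higher in the single peaks of Sos1 (45.1%) and Agap2 (49.5%). Soft-masked bases made up a median of 30.2% of a member peak and 24.1% of tested peaks in genes. G runs on the gene strand had a median density of 8.0 per kb in the members and 10.7 in tested peaks in genes. An excess of G over C on the gene strand was seen in 32 of the 40 member peaks (80.0%) and in 74.0% of tested peaks in genes. Among the 11 called member peaks 7 had this excess (63.6%), and among the 27 tested but not called 24 had it (88.9%).

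The genes whose sums ran most like those of each member over the 6 libraries were found by Pearson's r of log2(sum + 1), as a description. They were Nfkb1, Insr and Ip6k2 for Braf, Vapa, Tmem131 and the gene ENSMUSG00000000031 for Nf1, and Kxd1, Aqp5 and Gsdme for Rasa1. For Agap2 they were Prpf3, Smim4 and Dnaja1, and for Sos1 Vwa8, Brd9 and Col28a1. All 15 values of r were at least 0.989. Over 8002 genes, 56 exceeded 0.99 for Rasa1, 15 for Braf, 11 for Nf1, 9 for Agap2 and 2 for Sos1. Each value rests on the same 6 libraries.

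Beyond the 5 genes, a list of 85 genes of the Ras, RAF-MEK-ERK and PI3K-AKT pathways was read by role. Of these, 57 carried a union peak and 54 a tested one. Of 292 tested peaks 60 were called higher (20.5%) and 2 lower. Without the 5 member genes it was 49 of 254 (19.3%) higher and 2 lower. The share was 32.9% over all tested peaks and 24.5% over those in genes, and the difference from the pathway was not tested. The tested pathway peaks had a median length of 3000 bp, against 2400 bp over the table and 2800 bp over tested peaks in genes.

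Among activators and adaptors of Ras, 15 of 34 tested peaks rose (44.1%) and none fell. Their median length of 2200 bp was the shortest of the role groups, against 3600 bp in the AKT and mTOR group and in the AGAP family. The shares of the groups were not adjusted for length. Gab2, a docking protein for PI3K and SHP2, had the most tested peaks, with 2 of 10 called. The highest peak was in Sos2, the relative of Sos1, at chr12:69652000-69654999. It scored 214, 311 and 257 in Ctrl and 440, 456 and 460 in Kmt5b sKO, without overlap (log2 fold change of 0.81 with SE 0.15, limma adjusted p = 2.7e-06). The adaptor Frs2, the other gene of the group with at least 9 tested peaks and named after its values were seen, had 6 of its 9 tested peaks called higher.

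Among Ras GTPase-activating proteins and inhibitors, 28 of 93 rose (30.1%), 8 of them in Rasa1 and Nf1, and 1 fell. Rasal2, itself a Ras GTPase-activating protein, had the most tested peaks, 3 of 22 called higher and 1 lower. The lower one, at chr1:157252800-157259599, scored 259, 325 and 264 in Ctrl and 160, 210 and 169 in Kmt5b sKO, the reverse order of Rasa1 (−0.65, SE 0.16, limma adjusted p = 4.9e-04). The highest peak of the group, 40400 bp in the ERK inhibitor Spred1, had 0.18 (limma adjusted p = 0.27). The other genes of the group with at least 9 tested peaks, a cut made after the values were seen, went different ways. Spred2 had 8 of 13 and Rasa3 5 of 10 called higher, while Dab2ip had 0 of 12, with a median log2 fold change of −0.01.

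The Ras and Rap GTPases themselves had 0 of 17 tested peaks called, including 0 of 8 in Rap1a, and their peaks were long, with a median of 10000 bp. The highest, in Rras2, had a log2 fold change of 0.08 (limma adjusted p = 0.66). In the RAF-MEK-ERK group 6 of 26 rose (23.1%). Braf had the most tested peaks of this group, with 2 of 8 called.

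Among PI3K subunits 4 of 16 rose. Pik3c2a had 1 of 5 called, and the highest peak, in the catalytic subunit gene Pik3ca, had −0.18 (limma adjusted p = 0.29). In the group of AKT kinases, lipid phosphatases and mTOR components 5 of 79 rose (6.33%) and 1 fell. Rptor, the mTORC1 scaffold, had 1 of 20 called higher, and its highest peak had −0.20 (limma adjusted p = 0.23). The peak that fell was in Rictor, the mTORC2 scaffold, at chr15:6786800-6788999, with 41, 63 and 51 in Ctrl and 18, 40 and 17 in Kmt5b sKO (−1.11, SE 0.36, limma adjusted p = 0.0095).

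The AGAP family had 2 of 27 called higher, 1 of them the Agap2 peak. Agap1 had 1 of 24 called, and the highest Agap3 peak had 0.07 (limma adjusted p = 0.72). The change over Agap2 was thus seen in 1 peak of a family with few calls. Differences between the role groups were not tested.

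**Figure D5:**
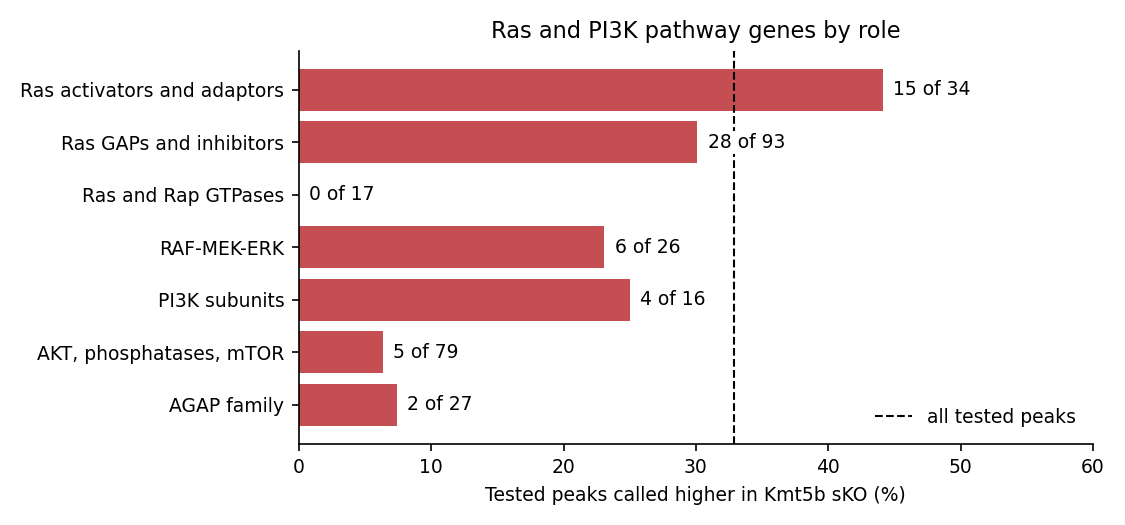
Share of tested peaks called higher in Kmt5b sKO (horizontal axis, percent, starting at 0) for the 7 role groups of the pathway list, with the number called of the number tested beside each bar. The dashed line marks the 32.9% of all tested peaks, and the activators and adaptors (15 of 34) are the one group beyond it. Over tested peaks in genes the share was 24.5%, which the Ras GTPase-activating proteins and inhibitors (30.1%) and PI3K subunits (25%) also exceeded. Shares are not adjusted for peak length, and the activators and adaptors have the shortest median length.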

How the data were processed

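DRIP-seq was analysed for 3 Ctrl and 3 Kmt5b sKO S9.6 libraries, grouped by the genotype in the labels. 1 input library of each genotype held no values used here. The authors trimmed reads with Trimmomatic 0.39, aligned them to mm10 (GRCm38) with STAR 2.7.3a, marked duplicates with Picard 2.21.7, called peaks against input with Epic2 (listed as SICER 0.0.41 in the submitters' processing notes) and unified them. The score deposited by the authors is the signal over each union peak, scaled by Drosophila spike-in reads and rounded. It is no read count, so no count model or counting interval was used, and the depth behind a score is unknown. The deposited distance column gives base pairs to the TSS.

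Autosomal peaks with a mean score over 30 were tested with limma 3.58.1 in R 4.3.3 (lmFit, eBayes with a trend, two-sided) on log2(score + 1), with Benjamini-Hochberg adjustment over all tested peaks. A fold change on this scale understates the change of low peaks. The prior degrees of freedom were infinite, so each variance came from the trend. Calls needed a fold change over 1.5 and an adjusted p under 0.1. Gene sums used the same rule, and ratios within genes used the adjusted p alone. The fits were also run on simulated scores whose spread was drawn from the trend of these data. Such a run cannot show whether p-values are too small for peaks off that trend. Python 3.11.15 and scipy 1.17.1 were used for descriptions. Exons come from GENCODE vM21 on GRCm38, numbered along 1 transcript per gene. Peak coordinates are printed as deposited, so a start may lie 1 base before that of a genome browser, while sequence windows count from 1.

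Named peaks were the highest, the most changed and the nearest to the TSS in each gene, and all called ones. Of each role group, the gene with the most tested peaks and the highest peak were named. 1 of these peaks is not reported here. The member genes, the pathway list and the rules were chosen with earlier results of these data known. Alternatives were other pseudocounts, level filters, scalings, variance models, thresholds, a replicate block and leaving out each library. Centring within length classes was added later. Libraries with the same replicate number were not treated as pairs in the main fits, and the labels do not say whether they are.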

Additional observations from a re-analysis of the deposited data

How the results depend on the processing

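The scaling of the libraries and the level filter both moved the counts. Giving all libraries the same total lowered the median log2 fold change of all tested peaks from 0.35 to 0.15, centring each library on its median peak to −0.11, quantile normalization to −0.01 and centring within length classes to −0.01. The Rasa1 sum had log2 fold changes of 0.96, 0.76 with equal totals and 0.51 when centred (limma adjusted p = 1.1e-07, short of the fold threshold). Rasa1 peaks 2 and 3 were called under each alternative run. Scores near the level minimum, deposited without their read numbers, limit what the short peaks can show.

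Member peaks called higher were 11. They were 3 at a mean score over 100 (12 tested), 4 when centred, 3 after quantile normalization, 7 with the variance of each peak alone (lost for Agap2, limma adjusted p = 0.13, Braf peak 3, 0.20, Nf1 peak 18, 0.17, and Rasa1 peak 1, 0.1005), 5 at a fold change over 2 and 3 within length classes. Member peaks called lower were 0, but 2 when centred, 3 after quantile normalization and 2 within length classes. Rasa1 peaks called higher were 7, and 2, 4, 3 and 3 with the mean score filter, centring, quantile normalization and length classes. Pathway peaks called higher were 60, and 19 with that filter, 29 with equal totals, 9 when centred, 11 after quantile normalization, 34 with their own variance, 14 at the larger fold and 10 within length classes. Pathway peaks called lower were 2, and 1, 7, 32, 26, 1, 1 and 17 in the same order, and 7 with no fold minimum. The median log2 fold change of the members was 0.43, 0.22 with the filter, 0.22 with equal totals, −0.031 when centred, −0.069 after quantile normalization and −0.075 within length classes. Gene sums called higher were 2, 1 with equal totals (Agap2 was lost) and 0 when centred. The cause of these moves beyond the shift was not tested.

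Signs turned for the longest Braf peak (−0.16 with equal totals, −0.41 when centred, −0.029 after quantile normalization, −0.065 within length classes, and −0.033 to 0.13 on leaving out each library, below 0 without Ctrl replicate 1 or Kmt5b sKO replicate 3), the Sos1 peak (−0.14 after quantile normalization, −0.11 within length classes), the first peaks of Braf (−0.21) and Nf1 (−0.20) within length classes, the Braf sum (−0.011 with equal totals, −0.26 when centred) and the Nf1 sum (−0.092 and −0.34).

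Leaving out each library in turn gave 8 to 16 member peaks called higher (8 without Ctrl replicate 3, 16 without Ctrl replicate 2) and 0 lower, 7 to 9 Rasa1 peaks, 46 to 66 pathway peaks higher and 1 to 6 lower (1 without Ctrl replicate 2, 6 without Kmt5b sKO replicate 2, 4 without Kmt5b sKO replicate 3), a median of 0.30 to 0.48, 1 to 3 gene sums higher (1 without Kmt5b sKO replicate 2) and 0 lower, and within genes 0 to 1 peaks higher and 0 to 3 lower. With the replicate number as a block, 11 member peaks were called higher and 0 lower, and 2 gene sums higher. Deviations of libraries with the same number correlated at −0.009, 0.011 and −0.027. No shared deviation was seen, which does not settle whether the number marks a pair. Of the single peaks and genes named, 280 values under alternatives kept direction and side of the threshold, 57 lost the call, 5 gained it and 14 changed sign.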
